A study of Mus musculus with 24 samples.

Results

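Periportal genes are transcripts that mouse hepatocytes carry at a higher level near the portal vein than near the central vein. The 9 described here are Cyp2f2, Pigr, Hal, Gls2, Etnppl, Hsd17b13, Hsd17b6, Ctsc and Aldh1b1. They were taken by symbol from a count table of 13686 genes, and each was detected in every one of the 23 libraries and passed the filter on low counts that left 11971 genes for testing. Liver RNA was read by QuantSeq, a 3′ tag method that counts messenger RNA ends. All livers came from male wild-type (WT) C57BL/6 mice, an inbred laboratory strain, after 6 weeks on 1 of 4 diets. These were a diet enriched in cottonseed oil (CSO, 6 libraries), in olive oil (OO, 6 libraries) or in safflower oil (SFO, 5 libraries), or chow (6 libraries). The submitters left out SFO_4, which they describe as an outlier that may be contaminated. The labels call the libraries separate samples and say no more, so a p-value here sets a difference against the spread of these samples, part of which may be technical. Oil and chow were compared as whole diets.

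Blood enters the liver lobule at the portal vein, rich in oxygen and nutrients, and leaves at the central vein. Hepatocytes along this path divide their work: periportal cells favour urea formation from ammonia, amino acid breakdown and glucose output, while pericentral cells favour glutamine synthesis and many drug-metabolising enzymes. Wnt and beta-catenin signalling sustains the pericentral programme and restrains the periportal one. A bulk measurement cannot separate fewer cells of a type from less RNA per cell, so a change in a periportal transcript cannot be told apart from a change in the extent of the periportal zone.

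The 9 genes did not move as a block. Cyp2f2 and Etnppl fell on SFO, Cyp2f2 also fell on OO, and Pigr rose on OO. On CSO the log2 fold changes of Cyp2f2 (-0.49) and Etnppl (-1.47) were close to those on SFO (-0.52 and -1.58), but neither passed. The other 6 passed no test against chow in the edgeR fit described next. Where a gene is said to have risen, fallen or been called, its adjusted p was under 0.05 in edgeR's quasi-likelihood test with all 4 diets fitted together and Benjamini-Hochberg adjustment over the 11971 genes. Across all 4 diets at once, 3 of the 9 differed: Pigr (adjusted p = 0.00644), Cyp2f2 (adjusted p = 0.0167) and Etnppl (adjusted p = 0.0196). Of all tested genes 3.87% did so.

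In CSO livers 0 of the 9 passed against chow, beside 0.409% of all tested genes. At an unadjusted p under 0.05 there were 3 (Cyp2f2, Etnppl and Hal), beside 637 of all 11971 tested genes. At an adjusted p under 0.05 DESeq2 called 2 of the 9, beside 111 of all genes, and limma voom 3, beside 215. In OO livers 2 of the 9 passed, Pigr upward and Cyp2f2 downward, beside 2.64% of all tested genes. In SFO livers 2 of the 9 passed, Cyp2f2 and Etnppl, both downward, beside 0.835% of all tested genes. The median log2 fold change over the 9 was 0.04 for CSO, -0.07 for OO and -0.24 for SFO against chow. Over all tested genes it was -0.02, 0.07 and 0.01. The 9 were positive and negative in near balance for CSO (5 and 4) and OO (4 and 5), with 3 positive and 6 negative for SFO.

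**Figure D1:**
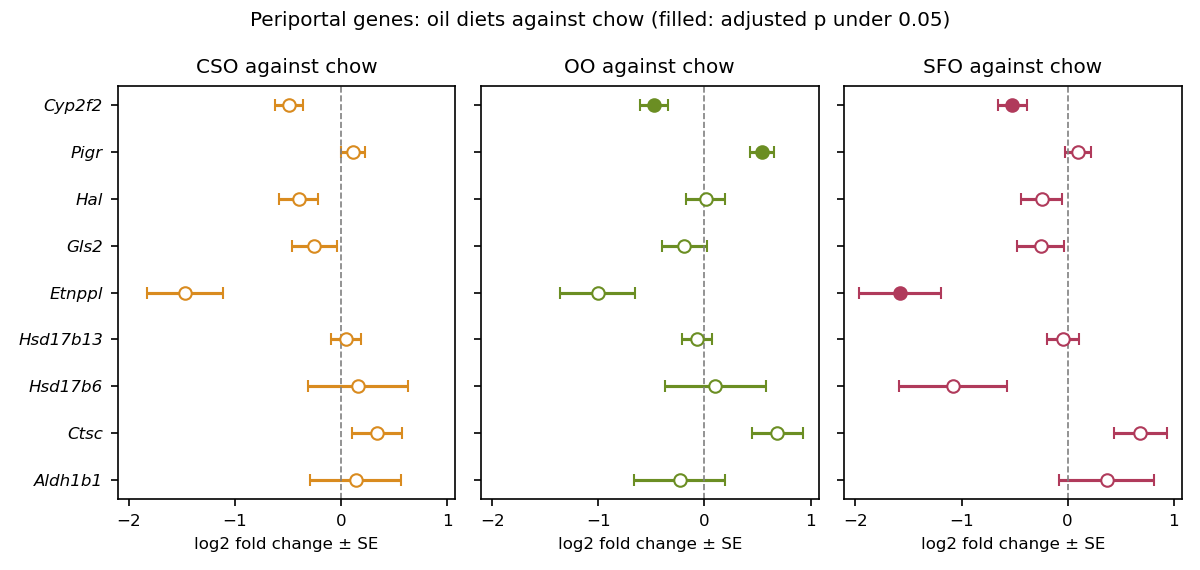
Log2 fold change (x axis) of each of the 9 periportal genes (y axis) for CSO, OO and SFO against chow, with points for the estimates, bars for 1 SE from edgeR's quasi-likelihood fit and filled points for an adjusted p under 0.05. Cyp2f2 sat between -0.52 and -0.47 on the 3 oils, Etnppl between -1.58 and -1.01, and Pigr stood at 0.54 on OO but at 0.11 on CSO and 0.10 on SFO.

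Several facts of the libraries stand beside these results. Library totals ran from 5428649 to 14930305 counts. Hepatocyte markers (9 of 10 in the table, since transferrin is listed as Trf and not as Tf) summed to 121400 to 168100 CPM (counts per library, put on a shared total) in CSO, 156500 to 209100 in OO, 139300 to 181900 in SFO and 126200 to 164400 in chow livers, so the labelled tissue was there in every library. Skeletal muscle markers (8 of 8) summed to 1.85 to 615.5 CPM in CSO, 0.534 to 11.49 in OO, 0.239 to 39.6 in SFO and 5.94 to 1884 in chow livers. Acta1, a muscle actin, stood above 100 CPM in chow 3 (461.2), chow 4 (887.4), chow 5 (186.2) and CSO 1 (313.6). Calls lost without these 4 libraries, which leaves 3 chow livers, are named beside the results. Endothelial markers (6 of 6) spanned 75.8 to 295.0 CPM and stellate cell markers (7 of 7) 186.1 to 385.7 CPM over all libraries. T and NK cell genes (2 of 5), B and plasma cell genes (3 of 5), neutrophil genes (2 of 5) and exocrine pancreas genes (3 of 6) each summed to at most 50.1 CPM in any library. Of 5 adipocyte markers Adipoq and Plin1 were not in the table. The other 3 summed to 1917 to 2741 CPM in CSO, 2321 to 3670 in OO, 1429 to 2509 in SFO and 2040 to 3471 in chow livers. Nearly all of this was Car3, with means of 2299, 2981, 2008 and 2842 CPM in the same order. The clock score, the mean log2 CPM of Per2, Per3, Tef, Dbp and Ciart minus that of Clock, Arntl and Nfil3, ran from 1.26 to 3.67 in CSO, -2.10 to 2.55 in OO, -2.74 to 2.84 in SFO and -2.08 to 1.25 in chow livers. Saa1, an acute phase gene, ran from 4.71 to 23.1 CPM in CSO, 1.495 to 72.0 in OO, 26.4 to 500.7 in SFO and 2.14 to 6.65 in chow livers. The part of clock phase and acute phase RNA in the results was not tested.

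Cyp2f2 (chromosome 7) encodes a cytochrome P450, best known for activating naphthalene in mouse airway cells, and is a classical periportal marker in mouse liver. The stretch around its start site is shown because Cyp2f2 was lower than chow on each oil. It is given from RefSeq on GRCm38.p6 (the counts were made on mm39) at chr7:27119705-27120004, plus strand, 250 bases before to 50 after the start, with a match to AGGTCA, a sequence that nuclear receptors bind, in capitals.
Cyp2f2 promoter: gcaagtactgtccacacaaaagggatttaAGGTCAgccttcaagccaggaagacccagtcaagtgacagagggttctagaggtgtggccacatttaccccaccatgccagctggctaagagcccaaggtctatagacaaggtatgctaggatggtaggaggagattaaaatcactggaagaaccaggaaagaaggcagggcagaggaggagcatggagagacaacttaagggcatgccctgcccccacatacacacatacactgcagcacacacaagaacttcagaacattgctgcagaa
Cyp2f2 read 1131, 1305 and 1494 CPM (lowest, median, highest) in CSO livers and 1113, 1274 and 1797 CPM in OO livers. The 5 SFO livers had 1346, 1026, 1683, 1270 and 1104 CPM. The chow livers had 1469, 1748 and 2440 CPM. All 17 oil-fed livers lay below the chow mean of 1846 CPM, but the groups overlapped, since chow 4 had the lowest chow value, below the highest value of each oil. Group means were 1312 ± 147 CPM for CSO, 1328 ± 248 for OO, 1286 ± 256 for SFO and 1846 ± 370 for chow (SD). Cyp2f2 fell by 0.47 ± 0.13 (log2 fold change ± SE) on OO (adjusted p = 0.0340) and by 0.52 ± 0.14 on SFO (adjusted p = 0.0463). On CSO the estimate was -0.49 ± 0.13 (adjusted p = 0.0773). The 3 estimates against chow share the chow livers, and no pair of oils differed at an unadjusted p under 0.05.

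The authors' deposited table gives Cyp2f2 log2 fold changes of -0.50 (CSO, adjusted p = 0.0355), -0.48 (OO, adjusted p = 0.0233) and -0.51 (SFO, adjusted p = 0.0476) relative to chow. In the fit of the counts made here, the SFO estimate was -0.43 without chow 1, the highest library at 2440 CPM. In 7 of the 23 runs that left out 1 library the OO call was lost (without chow 1, 2 or 3, or OO 2, 3, 4 or 6), and in 15 of 23 the SFO call. Without the 4 libraries with Acta1 the estimates were larger, -0.62 on OO and -0.66 on SFO, and their adjusted p-values were 0.0767 and 0.0718. With only 1 oil and chow fitted, the OO and SFO calls were lost (adjusted p = 0.0722 and 0.080), while CSO passed (adjusted p = 0.00787). CSO also passed with library totals (adjusted p = 0.0204), DESeq2 (adjusted p = 0.018) and limma voom (adjusted p = 0.000702). With DESeq2's size factors the SFO call was lost (adjusted p = 0.0561).

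The redox partners and follow-on enzymes of microsomal P450s were read as 4 genes (Por, Cyb5a, Cyb5r3 and Ephx1). Ephx1, the microsomal epoxide hydrolase that opens epoxides made by P450s, averaged 281.4 ± 46.8 CPM in CSO, 229.7 ± 76.5 in OO, 190.8 ± 37.1 in SFO and 546.4 ± 81.5 in chow livers. It fell by 0.96 ± 0.17 on CSO, by 1.25 ± 0.17 on OO and by 1.52 ± 0.18 on SFO (adjusted p = 0.000887, 5.05e-06 and 1.96e-07), with every oil-fed liver below every chow liver. Por, the reductase that passes electrons to these P450s, went the other way on CSO. It averaged 634.0 ± 49.0 CPM in CSO livers and 371.0 ± 93.7 CPM in chow livers, a rise of 0.77 ± 0.19 (adjusted p = 0.0428). Without the 4 libraries with Acta1 the CSO calls of both Ephx1 and Por were lost. That of Por was also lost in 13 of 23 runs that left out 1 library. Cyb5a and Cyb5r3, which carry electrons through cytochrome b5, passed no test in any of the 6 pairs of diets.

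Etnppl (chromosome 3) encodes ethanolamine-phosphate phospho-lyase, which splits phosphoethanolamine, a precursor of membrane phospholipid, into acetaldehyde, ammonia and phosphate. The stretch around its start, at chr3:130617325-130617624 on the plus strand of GRCm38.p6, is shown because Etnppl had the largest log2 fold changes of the 9 against chow on each oil. The capitals mark GTTAAT, part of the site that HNF1 binds, and TGACCT, the reverse complement of AGGTCA.
Etnppl promoter: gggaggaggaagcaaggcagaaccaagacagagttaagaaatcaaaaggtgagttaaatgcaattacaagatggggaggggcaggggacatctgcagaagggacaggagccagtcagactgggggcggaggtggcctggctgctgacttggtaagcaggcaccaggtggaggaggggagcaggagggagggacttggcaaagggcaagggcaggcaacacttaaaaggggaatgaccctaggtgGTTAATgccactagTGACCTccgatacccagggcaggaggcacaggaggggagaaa
Etnppl read 50.0, 65.6 and 97.1 CPM in CSO livers and 30.5, 82.7 and 201.0 CPM in OO livers. The 5 SFO livers had 22.8, 102.8, 94.3, 71.7 and 35.8 CPM. The chow livers had 140.9, 165.2 and 288.6 CPM. No CSO or SFO liver reached the lowest chow liver, whereas OO 3 alone of the OO livers lay above it. Means were 70.6 ± 17.2 CPM for CSO, 97.6 ± 58.9 for OO, 65.5 ± 35.2 for SFO and 196.0 ± 64.1 for chow. Etnppl fell by 1.58 ± 0.38 on SFO (adjusted p = 0.0432). The estimates were -1.47 ± 0.36 on CSO (adjusted p = 0.0726) and -1.01 ± 0.35 on OO (adjusted p = 0.122).

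For CSO the call depended on the procedure. It passed with limma voom (adjusted p = 6.95e-06, as did OO with adjusted p = 0.00861), with CSO and chow fitted alone (7.83e-06) and with DESeq2 (0.00530). In the authors' deposited table Etnppl stands at -1.48 on CSO (adjusted p = 0.00270), -1.01 on OO (adjusted p = 0.0525) and -1.57 on SFO (adjusted p = 0.00167). Without OO 3 the OO estimate was -1.35 (adjusted p = 0.0415), the 1 OO call in 23 runs that left out 1 library (adjusted p at most 0.223). The SFO call was lost in 14 of the 23 runs that left out 1 library, with the adjusted p at most 0.123. Without the 4 libraries with Acta1 the SFO estimate was -1.85 (adjusted p = 0.0772). The SFO call was also lost with SFO and chow fitted alone (adjusted p = 0.0585) and with no filter on low counts (adjusted p = 0.0551).

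Of 8 genes of phosphoethanolamine metabolism and neighbouring phospholipid and sphingolipid steps, 0 passed against chow on any oil. Sgpl1, the sphingosine-phosphate lyase that releases phosphoethanolamine from sphingolipids, averaged 49.1 ± 7.59 CPM in CSO livers and 111.2 ± 28.1 CPM in OO livers. That was a fall of 1.18 ± 0.23 in CSO relative to OO (adjusted p = 0.00280), and it held under the 9 other settings tried. Etnk2, a kinase that makes phosphoethanolamine from ethanolamine, averaged 390.4 ± 76.1 CPM in CSO livers and 255.8 ± 32.5 CPM in chow livers, which did not pass.

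Pigr (chromosome 1) encodes the polymeric immunoglobulin receptor, which carries IgA across epithelia and, in rodents, across hepatocytes into bile. Its promoter stretch, chr1:130826434-130826733 on the plus strand of GRCm38.p6, is shown because Pigr was the 1 periportal gene to rise. It holds none of the 5 motifs searched.
Pigr promoter: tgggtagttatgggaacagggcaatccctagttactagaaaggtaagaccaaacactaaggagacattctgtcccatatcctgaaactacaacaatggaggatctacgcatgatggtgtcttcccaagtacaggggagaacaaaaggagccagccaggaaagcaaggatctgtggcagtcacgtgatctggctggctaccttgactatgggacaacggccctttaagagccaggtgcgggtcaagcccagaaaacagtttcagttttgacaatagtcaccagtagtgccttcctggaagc
Pigr read 1039, 1208 and 1286 CPM in CSO livers and 1310, 1557 and 1982 CPM in OO livers. The 5 SFO livers had 1211, 906.6, 1321, 1124 and 1329 CPM. The chow livers had 937, 1109 and 1253 CPM. Every OO liver was above every chow liver and every CSO liver, whereas OO and SFO livers overlapped narrowly at OO 5, the lowest OO library. Pigr rose by 0.54 ± 0.12 on OO relative to chow (adjusted p = 0.00560). On CSO and SFO the estimates were 0.11 ± 0.11 and 0.10 ± 0.12 (adjusted p = 0.9996 and 0.955).

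Between oils, Pigr was the 1 of the 9 genes called. It fell by 0.43 ± 0.11 in CSO relative to OO (adjusted p = 0.0491), beside 1.09% of all tested genes called. In SFO relative to OO it stood at -0.44 ± 0.12 (adjusted p = 0.0529), where 0 of the 9 passed beside 1.06% of all tested genes. At an unadjusted p under 0.05 there were 2 (Pigr and Hsd17b6), beside 1836 of all 11971 tested genes. DESeq2 called 1 (Pigr), beside 440 of all genes. Between CSO and SFO 0 of the 9 passed beside 0.493% of all tested genes, and 0 by DESeq2 and by limma voom. There 1 (Hsd17b6) had an unadjusted p under 0.05, beside 921 of all 11971 tested genes.

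The rise against chow in OO kept its call in each of the 23 runs that left out 1 library. In the authors' deposited table it is 0.53 (adjusted p = 0.000790). Scaling by library totals alone, which moves the median of all genes for OO against chow to -0.12 from 0.07, gave 0.35 (adjusted p = 0.0620). Without the 4 libraries with Acta1 it was 0.43 (adjusted p = 0.266). The fall in CSO relative to OO was less steady: it lost its call in 16 of 23 runs, with the adjusted p at most 0.126. Bile duct cells also make Pigr, and 5 of their markers were read (Krt19, Epcam, Sox9, Spp1 and Cldn7). Their sum ran from 30.8 to 68.5 CPM in CSO, 12.2 to 86.0 in OO, 49.3 to 109.6 in SFO and 37.5 to 80.4 in chow livers, and was not tested against Pigr. Of the IgA chains that Pigr carries, 1 of 2 was in the table and it did not pass the filter on low counts.

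**Figure D2:**
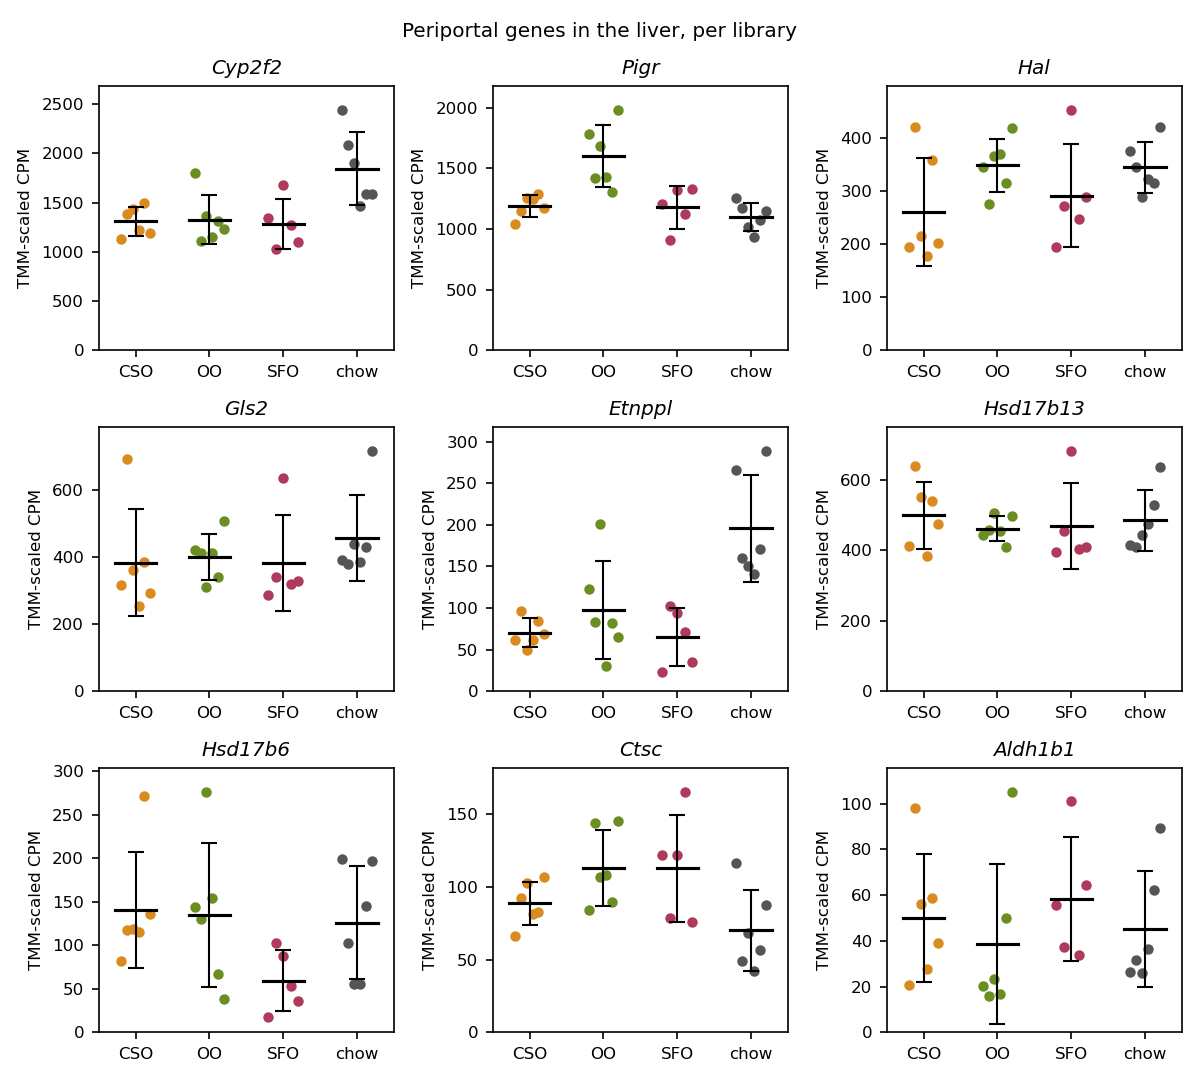
CPM (y axes, from 0) of each of the 9 periportal genes in every library, by diet, with a bar at the group mean and error bars of 1 SD. Etnppl in CSO and SFO livers sits below every chow liver, Pigr in OO livers sits above every chow liver, and single libraries stand high for Gls2.

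Hal and Gls2 release ammonia from amino acids. Hal (chromosome 10), histidine ammonia-lyase, takes the first step of histidine breakdown. Gls2 (chromosome 10), the liver-type glutaminase, frees ammonia from glutamine next to the urea cycle. Hal averaged 260.9 ± 101.5 CPM in CSO, 347.8 ± 49.4 in OO, 290.8 ± 96.7 in SFO and 344.2 ± 47.3 in chow livers. The log2 fold change against chow was -0.40 ± 0.18 for CSO (unadjusted p = 0.0355, adjusted p = 0.880), 0.01 ± 0.18 for OO and -0.24 ± 0.19 for SFO. On CSO Hal passed with limma voom (-0.58, adjusted p = 0.0343) but not with DESeq2 (-0.41, adjusted p = 0.3445). The CSO livers were the most spread, since 2 of them lay above the chow mean and the median was 207.8 CPM. Against OO, CSO stood at -0.41 ± 0.18 (adjusted p = 0.268).

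Gls2 averaged 383.0 ± 158 CPM in CSO, 400.4 ± 68.6 in OO, 382.0 ± 143 in SFO and 455.9 ± 129 in chow livers. The fold changes of -0.25 ± 0.21, -0.19 ± 0.21 and -0.26 ± 0.22 against chow were of about the size of their SE. In CSO, SFO and chow a single library stood far above the rest: CSO 2 had 690.5 CPM and the next CSO liver 385.7. SFO 3 had 635.4 against 341.4, and chow 6 had 714.5 against 439.6.

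The later enzymes of histidine breakdown (Uroc1, Amdhd1 and Ftcd) had 0 of 3 called in any pair of diets. Of 7 other genes of ammonia and glutamine handling, 3 rose on OO and 0 changed on CSO or SFO relative to chow. Of all tested genes 2.64%, 0.409% and 0.835% were called on OO, CSO and SFO. Glud1, the mitochondrial enzyme that releases ammonia from glutamate, averaged 1745 ± 225 CPM in OO livers and 1186 ± 154 CPM in chow livers (0.56 ± 0.11, adjusted p = 0.00381). Slc38a3, a glutamine transporter, rose by 0.49 ± 0.14 (adjusted p = 0.0446). Glul, the pericentral glutamine synthetase, rose by 0.57 ± 0.15 (adjusted p = 0.0321) and is counted again among the 16 pericentral genes below. The calls of Slc38a3 and Glul were lost with scaling by library totals, with limma voom and with only the diets compared. That of Glud1 was kept under these settings, and none of the 3 was called without the 4 libraries with Acta1. Slc38a3 also lost its call in 12 of the 23 runs that left out 1 library, and Glul in 6.

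Hsd17b13, Hsd17b6 and Aldh1b1 oxidise alcohols or aldehydes of lipids, steroids and retinoids. Hsd17b13 (chromosome 5) sits on lipid droplets, and in people loss-of-function variants go with a lower risk of chronic liver disease. It had the flattest levels of the 9: 500.2 ± 95 CPM in CSO, 462.0 ± 35.8 in OO, 469.3 ± 120.8 in SFO and 485.0 ± 86.4 in chow livers. Its log2 fold changes against chow were 0.04 ± 0.14, -0.07 ± 0.14 and -0.05 ± 0.15 for CSO, OO and SFO, with 95% intervals between -0.36 and 0.33. Of 9 other lipid droplet genes, 1 rose against chow and on OO alone, where 2.64% of all tested genes were called. The 1 gene was Pnpla3, a lipase relative tied to fatty liver in people, and its counts were low. It stood between 0 and 27.8 CPM (median 1.99) in OO livers and between 0 and 0.550 CPM (median 0) in chow livers (adjusted p = 0.0294), so the groups overlapped at 0. The call was lost without the 4 libraries with Acta1 (adjusted p = 0.204), with the replicate number as a block (adjusted p = 0.117) and in 5 of 23 runs that left out 1 library.

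Hsd17b6 (chromosome 10) encodes a dehydrogenase of androgen metabolites and retinol, and has 6 protein-coding genes between it and Gls2. Beside it lie Rdh9, Rdh16, Rdh19, Rdh16f2, Rdh7 and Sdr9c7, relatives of which some are close copies, so reads may have been split between them and the count of Hsd17b6 is uncertain. It read 82.1, 118.5 and 271.9 CPM in CSO livers and 38.1, 137.2 and 276.3 CPM in OO livers. The 5 SFO livers had 18.0, 102.9, 87.5, 52.9 and 36.4 CPM. The chow livers had 55.8, 123.9 and 199.0 CPM. SFO livers were the lowest group, each below the mean of every other diet, but they overlapped all of them.

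The SFO estimates for Hsd17b6 were -1.08 ± 0.51 against chow (unadjusted p = 0.0475, adjusted p = 0.630) and -1.18 ± 0.51 against OO (adjusted p = 0.272), and CSO against SFO gave 1.24 ± 0.51 (adjusted p = 0.524). Against chow CSO stood at 0.16 ± 0.47 and OO at 0.10 ± 0.47. Rdh16 had 63.1 ± 26.5 CPM in SFO livers and 116.2 ± 27.3 CPM in chow livers. Rdh7 had 1019 ± 118 CPM in SFO and 1074 ± 61.0 CPM in chow livers. Of 6 tested relatives and steroid enzymes, 0 passed in any pair of diets.

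Aldh1b1 (chromosome 4), a mitochondrial enzyme that oxidises acetaldehyde and retinal, had the largest SD relative to its mean of the 9 in CSO, OO and chow livers. It averaged 50.0 ± 27.9 CPM in CSO, 38.6 ± 34.9 in OO, 58.5 ± 27.1 in SFO and 45.3 ± 25.4 in chow livers, and OO spanned 16.1 to 105.1 CPM. The fold changes against chow were 0.14 ± 0.43, -0.23 ± 0.43 and 0.37 ± 0.45. Among 8 other aldehyde dehydrogenases, 1 rose on CSO (Aldh3a2, the fatty aldehyde dehydrogenase, 0.84 ± 0.17, adjusted p = 0.00482) and 1 on OO (Aldh4a1, of proline breakdown, 0.62 ± 0.14, adjusted p = 0.00780). Of all tested genes 0.409% were called on CSO and 2.64% on OO. Both aldehyde dehydrogenase calls were lost without the 4 libraries with Acta1. In SFO relative to OO 4 fell, beside 1.06% of all tested genes called. Aldh3a2 fell by 1.11 ± 0.18 (adjusted p = 0.000706) and Aldh4a1 by 0.63 ± 0.14 (adjusted p = 0.0215). The call of Aldh4a1 was lost under 4 of 9 other settings, leaving out those 4 libraries among them. Aldh2 and Aldh6a1 were close to the threshold (adjusted p = 0.0473 and 0.0481) and each lost the call under 6 of 9 other settings. Aldh3a2 averaged 668.2 ± 80.1 CPM in CSO livers and 255.5 ± 63.3 CPM in SFO livers, a rise of 1.39 ± 0.18 (adjusted p = 3.49e-06).

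Ctsc (chromosome 7) encodes cathepsin C, a lysosomal peptidase that activates serine proteases of immune cell granules. It read 66.0, 87.3 and 106.4 CPM in CSO livers and 84.2, 107.3 and 145.1 CPM in OO livers. The 5 SFO livers had 122.2, 78.3, 121.9, 165.1 and 75.6 CPM. The chow livers had 42.5, 62.3 and 116.4 CPM. All 6 OO and 5 SFO livers lay above the chow mean of 70.1 CPM, with overlap because chow 1 stood at 116.4 CPM. The estimates were 0.34 ± 0.24 on CSO, 0.69 ± 0.24 on OO (adjusted p = 0.0975) and 0.69 ± 0.25 on SFO (adjusted p = 0.311). Without chow 1 the OO estimate was 0.89 (adjusted p = 0.0386), the 1 call in 23 runs that left out 1 library. Without chow 4 it was 0.58, and the highest adjusted p of these runs was 0.237. Without the 4 libraries with Acta1 the OO estimate was 0.42 (adjusted p = 0.717).

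Macrophages also express Ctsc. Their 10 markers, all in the table, summed to 85.3 to 212.4 CPM in CSO, 106.7 to 376.2 in OO, 119.4 to 310.5 in SFO and 109.9 to 313.4 in chow livers, and their part in Ctsc was not tested. Of 11 other lysosomal genes, 0 passed against chow on any oil. Ctsl, another cathepsin, averaged 313.9 ± 46.8 CPM in CSO livers and 477.1 ± 57.6 CPM in SFO livers, a fall of 0.60 ± 0.14 in CSO (adjusted p = 0.0284). The call was lost without the 4 libraries with Acta1, with the replicate number as a block and in 8 of 23 runs that left out 1 library.

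Within a diet, several of the 9 genes rose and fell together from liver to liver. For each library, the log2 CPM of a gene minus its diet mean was taken, which removes differences between diets, and the 36 pairs of genes were compared over the 23 libraries. Pearson's r was positive for 35 pairs, with a median of 0.283. These 2 values were not taken over pairs of other expressed genes, so they are not shown to be particular to the 9. In a two-sided permutation test within diets (100000 resamples), 8 pairs had an adjusted p under 0.05 over the 36 by Pearson's r, and 5 by Spearman's rho. The highest was Gls2 with Hsd17b13, at r = 0.848 (permutation p = 0.0001, adjusted p = 0.0018) and Spearman's rho = 0.702 (permutation p = 0.0009, adjusted p = 0.022). Without CSO 2 and SFO 3, the 2 libraries farthest from the median of Gls2, r was 0.748. Within a single diet it was 0.875 in CSO, 0.162 in OO and 0.875 in chow livers (n = 6 each), so the relation was weak on OO.

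Hal joined this pair. Hal with Gls2 gave r = 0.805 (permutation p = 9e-05, adjusted p = 0.0018) and rho = 0.656 (permutation p = 0.00253, adjusted p = 0.0286), and r = 0.613 without CSO 2 and SFO 3. Hal with Hsd17b13 gave r = 0.752 (permutation p = 0.00047, adjusted p = 0.00423) but rho = 0.582 (permutation p = 0.0112, adjusted p = 0.0672), and r = 0.575 without the same 2 libraries. Hsd17b13 with Aldh1b1 gave r = 0.656 (permutation p = 0.00037, adjusted p = 0.00423) and rho = 0.612 (permutation p = 0.00318, adjusted p = 0.0286). Aldh1b1 also passed by r with Gls2 and Hal (0.636 and 0.601, adjusted p = 0.00662 and 0.0116) but not by rho (adjusted p = 0.272 and 0.0679). In OO livers alone r was 0.341 for Hal with Gls2, 0.555 for Hal with Hsd17b13 and 0.129 for Hsd17b13 with Aldh1b1. The libraries behind these values recur: chow 6 and CSO 2 were each the highest of their diet for Hal, Gls2, Etnppl, Hsd17b13 and Aldh1b1, and SFO 3 was the highest SFO liver for Cyp2f2, Hal, Gls2, Hsd17b13 and Aldh1b1. Etnppl with Hsd17b6 gave r = 0.655 (permutation p = 0.00501, adjusted p = 0.0258) and rho = 0.702 (permutation p = 0.00122, adjusted p = 0.022), and r = 0.797 without OO 3 and OO 4. Cyp2f2 with Pigr gave r = 0.577 (permutation p = 0.011, adjusted p = 0.0495) and rho = 0.609 (permutation p = 0.00581, adjusted p = 0.0418), and r = 0.499 without OO 1 and chow 1, although their means moved apart on OO. The lowest r was -0.154, for Hsd17b6 with Aldh1b1. The libraries share scaling by composition, and time of day, feeding state and dissection were not recorded in the labels.

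**Figure D3:**
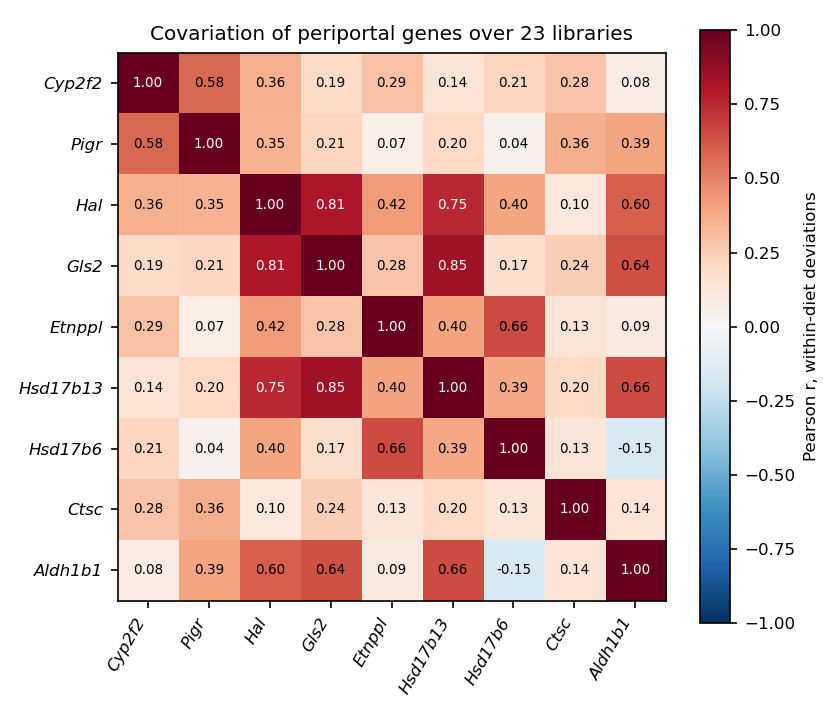
Pearson's r (colour) of within-diet deviations in log2 CPM between each pair of the 9 periportal genes (both axes) over 23 libraries. The block of Hal, Gls2 and Hsd17b13 runs from 0.752 to 0.848, and 1 of 36 pairs is below 0.

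The promoters of Hal and Hsd17b13 are set side by side because each gene correlated with Gls2, both from RefSeq on GRCm38.p6. Hal lies at chr10:93488518-93488817 on the plus strand and Hsd17b13 at chr5:103977339-103977638 on the minus strand. Capitals mark CTTTGA, the core that TCF/LEF factors of the Wnt pathway bind, or its reverse complement TCAAAG. They also mark TGACCT in Hsd17b13 and, in Hal, TTTATA, the reverse complement of the TATA box sequence TATAAA. That match lies on the opposite strand, and whether it works as a TATA box was not tested.
Hal promoter: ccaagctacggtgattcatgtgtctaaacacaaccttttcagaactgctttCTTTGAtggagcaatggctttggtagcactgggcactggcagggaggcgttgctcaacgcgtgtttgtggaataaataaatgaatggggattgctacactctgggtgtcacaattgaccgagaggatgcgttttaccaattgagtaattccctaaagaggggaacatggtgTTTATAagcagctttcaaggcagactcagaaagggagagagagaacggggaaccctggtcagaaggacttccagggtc
Hsd17b13 promoter: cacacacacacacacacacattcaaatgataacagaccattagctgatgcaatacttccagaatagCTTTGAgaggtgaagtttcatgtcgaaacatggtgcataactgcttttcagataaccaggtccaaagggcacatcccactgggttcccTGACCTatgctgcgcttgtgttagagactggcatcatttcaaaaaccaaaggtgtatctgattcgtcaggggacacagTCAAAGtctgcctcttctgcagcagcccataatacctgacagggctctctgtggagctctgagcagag
The RefSeq promoter table held windows for 8 of the 9 genes, and that of Gls2 was not analysed here. Motifs were searched on both strands in windows of 300 bases, and no pair of matches overlapped. CTTTGA was present for 3 genes (Aldh1b1, Hal and Hsd17b13) and in 16.0% of all 32851 promoter windows. AGGTCA was present for 3 genes (Cyp2f2, Etnppl and Hsd17b13) and in 16.3% of all windows. GTTAAT was found for Etnppl and in 7.10% of windows, TATAAA for Hal and in 13.6%, and CAAAGTCCA, a core of HNF4A sites, for none and in 0.475%. AGGTCA lay at offset -221 from the start base in Cyp2f2, at offset 9, after the start, in Etnppl and at offset -96 in Hsd17b13. Cyp2f2 and Etnppl fell on SFO and Hsd17b13 did not, and a link of the motif to the fall was not tested. A second RefSeq window of Etnppl, chr3:130617198-130617497, held none of the 5 motifs.

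**Figure D4:**
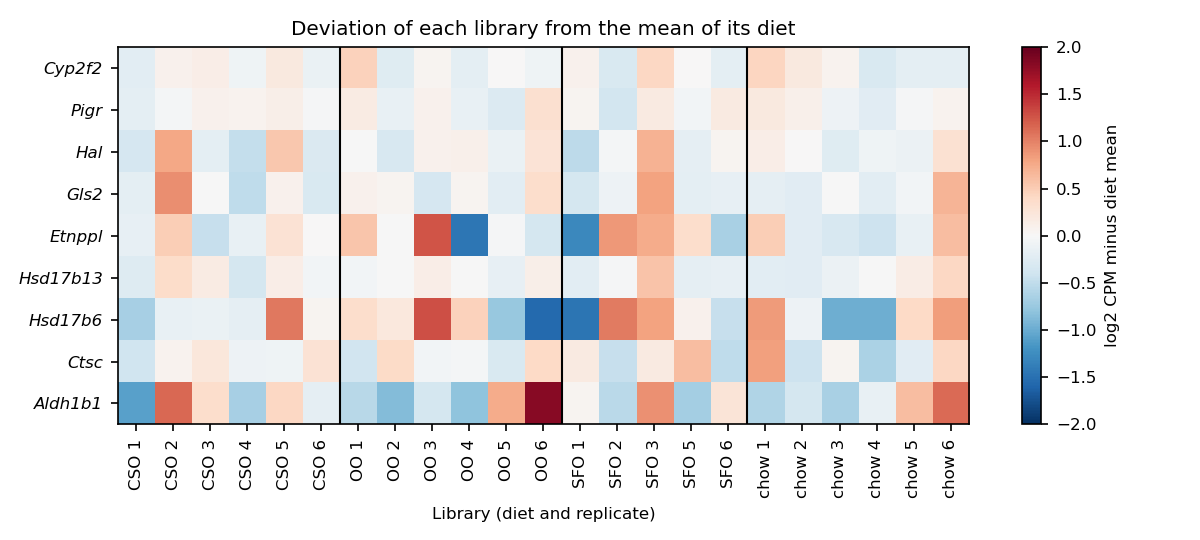
Deviation of log2 CPM from the diet mean (colour) for each of the 9 periportal genes (rows) in each of the 23 libraries (columns, grouped as CSO, OO, SFO and chow). CSO 2, SFO 3 and chow 6 are high for Hal, Gls2, Hsd17b13 and Aldh1b1 together.

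For each of the 9, the gene with the highest r among 9475 expressed genes was also read, over the same 23 libraries and as a description only, since it was picked as the highest. Hal was nearest to Ass1, the periportal urea cycle enzyme (r = 0.850), and Aldh1b1 to Sds, the periportal serine dehydratase (r = 0.780). Gls2 and Hsd17b13 were nearest to each other. The others were nearest to genes that are not zonation markers: Cyp2f2 to Rrp15 (r = 0.765), Pigr to Usp32 (r = 0.800), Etnppl to Safb (r = 0.771), Hsd17b6 to Setd3 (r = 0.780) and Ctsc to Mrpl16 (r = 0.682).

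A further 15 periportal genes, among them the urea cycle and gluconeogenic enzymes, had 0 called against chow on each of the 3 oils. Their median log2 fold changes were -0.08 on CSO, -0.09 on OO and 0.07 on SFO. Between oils 2 were called, 1 in CSO against OO and 1 in SFO against OO, beside 1.09% and 1.06% of all tested genes. Arg1, arginase, averaged 1335 ± 228 CPM in CSO livers and 975.4 ± 100.1 CPM in OO livers (0.45 ± 0.12, adjusted p = 0.0412). Otc, ornithine transcarbamylase, averaged 504.3 ± 58.6 CPM in SFO livers and 753.6 ± 125.3 CPM in OO livers (-0.58 ± 0.14, adjusted p = 0.0276). Both calls were lost without the 4 libraries with Acta1, with limma voom and with only the diets compared. That of Otc was also lost with scaling by library totals. Leaving out 1 library lost the call of Arg1 in 9 of 23 runs and that of Otc in 2.

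Of 16 pericentral genes, 2 rose on CSO, 5 on OO and 1 on SFO, and 0 fell, with medians of 0.20, 0.22 and 0.02, beside 0.409%, 2.64% and 0.835% of all tested genes called. The 2 zones were not tested against each other. Gulo, the last enzyme of vitamin C synthesis in mice, averaged 601.9 ± 70.2 CPM in CSO, 781.5 ± 179.8 in OO and 401.5 ± 37.4 in chow livers. It rose by 0.58 ± 0.14 on CSO (adjusted p = 0.0356) and by 0.96 ± 0.14 on OO (adjusted p = 1.68e-05). Cyp2e1, the ethanol-oxidising P450, rose by 0.64 ± 0.14 on CSO and by 0.58 ± 0.14 on OO (adjusted p = 0.0331 and 0.0229). Lect2, a secreted target of beta-catenin, rose by 1.34 ± 0.25 on OO and by 1.12 ± 0.25 on SFO (adjusted p = 0.000852 and 0.0125), and Rgn, which also acts in vitamin C synthesis, by 0.65 ± 0.12 on OO (adjusted p = 0.00105). On OO, Gulo, Lect2 and Rgn kept their calls under all 9 other settings and in all 23 runs that left out 1 library, while Cyp2e1 and Glul each lost theirs under 4 of the 9, scaling by library totals among them. Without the 4 libraries with Acta1 the calls of Cyp2e1 on CSO and OO, Gulo on CSO, Glul on OO and Lect2 on SFO were lost. Leaving out 1 library lost the CSO call of Gulo in 11 of 23 runs and that of Cyp2e1 in 8. Other members of the list had lower means on an oil without passing. Cyp2a5, a P450 of coumarin, averaged 401.4 ± 191.7 CPM in CSO, 299.7 ± 105.9 in OO, 201.9 ± 132.5 in SFO and 643.4 ± 216.5 in chow livers (adjusted p = 0.9996, 0.168 and 0.114). Tbx3, a target of beta-catenin, averaged 30.8 ± 4.57 CPM in CSO and 60.9 ± 28.8 CPM in chow livers (adjusted p = 0.342), and Cyp1a2, a P450 of caffeine, 480.4 ± 97.9 CPM in CSO and 807.9 ± 151.2 CPM in chow livers (adjusted p = 0.0749).

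Of 11 tested regulators of zonation, 1 rose, and on OO alone, where 2.64% of all tested genes were called. Ctnnb1, the 1 that rose, encodes beta-catenin. It averaged 354.4 ± 72.0 CPM in OO livers and 230.8 ± 26.8 CPM in chow livers (0.62 ± 0.15, adjusted p = 0.0184). The call was lost under 4 of 9 other settings. These were scaling by library totals, limma voom, only the diets compared, and leaving out the 4 libraries with Acta1. Pericentral genes also differed between oils: Cyp1a2 was lower in CSO than in OO livers (-0.79 ± 0.19, adjusted p = 0.0312). Oat, ornithine aminotransferase, and Rgn were lower in SFO than in OO livers (-0.75 ± 0.16 and -0.59 ± 0.13, adjusted p = 0.0122 and 0.0149). The call of Cyp1a2 was lost under 4 of 9 other settings, leaving out the 4 libraries with Acta1 among them, and those of Oat and Rgn under 2 each. The mean log2 CPM of the 9 periportal genes minus that of the 16 pericentral genes, a balance read only between libraries, had a lowest, median and highest value of -0.11, 0.25 and 1.17 in CSO, -0.14, 0.41 and 0.93 in OO, 0.09, 0.40 and 0.98 in SFO and 0.30, 0.44 and 1.40 in chow livers. The 4 diets overlapped on this balance.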

How the data were processed

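The authors deposited raw counts per gene for 23 liver libraries and 3 tables of results of chow against 1 oil diet each. Per the submitters' processing notes, Trimmomatic, STAR 2.7.1a, HTSeq 0.9.1, DESeq2 and DESeq were used with build mm39. Strand handling was not given in the sources used here. Per the file headers, the deposited tables of results hold the base mean as a signal of normalized counts, the log2 fold change and its error, the Wald score, and the raw and adjusted p-value. Their log2 fold changes run chow over oil and were reversed in sign here.

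The counts were tested with edgeR 4.0.16 under R 4.3.3, with limma 3.58.1 and DESeq2 1.42.0 as alternatives, and plotted with matplotlib 3.10.9 under Python 3.11.15. The filter filterByExpr kept 11971 of 13686 genes, which hold 99.9% of the counts, and the lowest gene total in the table is 51. Libraries were scaled by TMM, CPM uses the scaled totals, and log2 CPM a prior count of 2. All 4 diets entered 1 fit with no term but diet (robust quasi-likelihood F test, two-sided). Standard errors come from the F statistic. The procedure was tested on simulated data. Correlations used permutations within diets.

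The 9 genes and the companion and marker lists were chosen with earlier results of these data known. Named beside the 9 were called companion genes (up to 4 a list, or else up to 2 with the highest expression) and the nearest gene of each of the 9. Some further genes were named after their values were seen: Rdh16, Cyp2a5, Tbx3, Sgpl1's neighbour in the pathway Etnk2, and the genes of the library checks. Of the symbols, 13681 of 13686 matched RefSeq, which gave chromosomes and promoters on GRCm38.p6 and no coordinates for the counts.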

Additional observations from a re-analysis of the deposited data

Results flagged for a closer look

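In 6 of 36 groups (9 genes in 4 diets), 1 library stood far from the others of its diet. The rule used flags about 1 in 20 groups of normally distributed values. The shape of these CPM values was not tested and the 9 genes share libraries, so an excess of flags was not shown. For Gls2 the flagged libraries were CSO 2 (690.5 CPM, next 385.7), SFO 3 (635.4 CPM, next 341.4) and chow 6 (714.5 CPM, next 439.6). For Hsd17b13 it was SFO 3 (681.9 CPM, next 453.7). For Cyp2f2 it was OO 1 (1797 CPM, next 1363), and for Hsd17b6 CSO 5 (271.9 CPM, next 136.1). SFO 3 was thus far above its diet for both Gls2 and Hsd17b13, the pair with the highest correlation.

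In the direct test of CSO against OO, Pigr was called close to the threshold. Pigr stood at -0.43 on the log2 scale in CSO relative to OO livers (adjusted p = 0.0491), with 6 of 6 CSO livers below the OO mean. The call was lost in 16 of the 23 runs that left out 1 library. It was also lost with the replicate number as a block (adjusted p = 0.0747) and without the 4 libraries with Acta1 (adjusted p = 0.168).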

How the results depend on the processing

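The 9 genes' 27 fold changes against chow and the 5 between oils with an unadjusted p under 0.05, under 9 other settings each, gave 288 values. Of these 250 kept their direction and side of the threshold, 16 lost a call, 11 gained one and 11 changed sign. The count of the 9 called stayed the same in all 7 comparisons with at least 10 counts in at least 5 libraries. In CSO against chow (0) it was 2 with library totals, 2 with DESeq2, 3 with limma voom and 2 with only the diets compared. In OO against chow (2) it was 1 with library totals, 1 with only the diets compared, 3 with limma voom and 0 without the 4 libraries with Acta1. In SFO against chow (2) it was 1 with DESeq2's size factors, 1 with no filter, 0 with only the diets compared and 0 without those 4. In CSO against OO (1) it was 0 with DESeq2's size factors, library totals, no filter, only the diets compared or without those 4. In SFO against OO (0) DESeq2 gave 1. For any difference among the diets (3) it was 2 with library totals, 4 with limma voom and 0 without those 4, where 3 chow livers remain. Leaving out 1 library gave 0 to 1 in CSO against chow, 1 to 2 in OO against chow, 0 to 2 in SFO against chow, 0 to 1 in CSO against OO and 0 to 1 in SFO against OO. Of 33 calls of companion genes, 24 were lost under at least 1 of the other settings, 17 in at least 1 run that left out a library, and 0 changed sign. The causes were not tested.

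Signs changed for values near 0. With library totals Hal on OO was -0.17 and Hsd17b6 on OO -0.14. With limma voom Hsd17b13 on CSO was -0.0024, Hsd17b6 on CSO -0.048, Aldh1b1 on CSO -0.10, Hal on OO -0.0070 and Hsd17b6 on OO -0.37. Without the 4 libraries with Acta1, Hsd17b6 on CSO was -0.13, Hal on OO -0.13, Hsd17b6 on OO -0.29 and Pigr on SFO -0.0076. Leaving out 1 library gave -0.037 to 0.14 for Hsd17b13 on CSO, -0.14 to 0.34 for Hsd17b6 on CSO, -0.17 to 0.45 for Aldh1b1 on CSO, -0.037 to 0.081 for Hal on OO, -0.11 to 0.023 for Hsd17b13 on OO, -0.24 to 0.30 for Hsd17b6 on OO, -0.83 to 0.078 for Aldh1b1 on OO and -0.22 to 0.046 for Hsd17b13 on SFO.

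With the replicate number as a block, 0 of the 9 were called in CSO against OO, and no other count of the 9 moved. Over all genes the block gave 208 calls in OO against chow, where 316 were called without it, and 77 in SFO against OO, where 127 were. The deviations of same-numbered libraries of different diets gave r from -0.101 to 0.0346 over 33 pairs. These values were not set beside those of differently numbered libraries. Whether the numbers mark libraries that were handled together was not tested.

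Over all genes, in the order CSO, OO and SFO against chow, CSO against OO, CSO against SFO and SFO against OO, calls numbered 49, 316, 100, 130, 59 and 127. DESeq2 gave 111, 686, 187, 413, 140 and 440, limma voom 215, 125, 148, 110, 148 and 20, only the diets compared 198, 122, 109, 79, 91 and 2, and leaving out the 4 libraries 14, 26, 34, 40, 39 and 37. Library totals gave 83 in CSO against OO and 56 in SFO against OO. For any difference, 463 genes were called, 793 with DESeq2, 862 with no filter and 131 without the 4.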
